A study of Homo sapiens with 4 samples.

Results

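The genes described here are 8 tetraspanins, CD9 and 7 relatives expressed beside it: CD63, CD81, CD82, CD151, TSPAN3, TSPAN4 and TSPAN9. They were taken by symbol from the 33538 genes of the count matrices. They belong to a family of 33 listed tetraspanin genes, and the other 25 are given as a group. The set was chosen by CD9's level, which was lower with shAPC in these same libraries, so the CPM and shares of cells given for that contrast are a description and support nothing by themselves. The question put to the other genes was whether their transcripts were also lower beside CD9, or higher by an amount that made up for it.

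HCEC 1CT cells, a line of human colonic epithelial cells immortalised with TERT and CDK4, carried either a scrambled short hairpin RNA (shScr) or 1 short hairpin RNA against APC (shAPC). Both had been delivered by a virus, called retroviral in the labels and lentiviral in the methods, with puromycin selection, and the cells were harvested 3 or 7 days after transduction. Every combination of hairpin and day, 4 groups in all, was 1 droplet library of 10x Genomics 3' single-cell RNA sequencing. Nothing could be tested between groups with 1 library in each: every interval below is a 95% interval for counting error only, and says nothing of how much 2 cultures of one kind would differ.

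Tetraspanins are small proteins that cross the membrane 4 times and gather other membrane proteins around them into patches. CD9 and CD81 are found mostly at the cell surface, CD63 cycles between the surface and late endosomes or lysosomes, and all of them are also used as markers of extracellular vesicles. CD151 binds laminin-binding integrins, and CD82 is known as a suppressor of cell motility and metastasis. TSPAN4 is a marker of migrasomes, the vesicles that migrating cells leave on their retraction fibres.

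After the filter (at least 200 genes, 500 UMIs and under 5% mitochondrial UMIs) the libraries held 1116 (shScr) and 788 (shAPC) cells at day 3 and 2600 (shScr) and 1478 (shAPC) at day 7, an order kept wherever 4 values follow each other, with 28451455 to 39797418 UMIs in all. The median depth per cell ran from 1330 UMIs in shScr day 7 to 49685.5 in shAPC day 3. The mitochondrial limit removed 24.1% to 28.8% of the barcodes of 3 libraries and 51.3% of shAPC day 7. By the file headers the shScr matrices came from Cell Ranger 3.0.2 and the shAPC matrices from 3.0.0, so the software version and the hairpin cannot be told apart. Up to 25 barcodes were shared by 2 libraries of a day. APC, the target, stood at 16.1 CPM (UMIs per 1000000 UMIs of the kept cells) in shScr day 3 and 5.52 in shAPC day 3, and at 19.1 and 6.61 at day 7. Marker lists went against the colonic epithelial label in part: the 8 epithelial genes summed to 25.1 to 49.4 CPM, with CDH1 and CLDN3 or EPCAM at 0 UMIs in 3 libraries. The colon genes CDX2, MUC2 and KRT20 were at 0 in all 4, while 7 mesenchymal genes summed to 8814 to 11385 CPM. The endothelial list stayed under 1 CPM, and the platelet list at 8.34 to 12.0 CPM, nearly all of it PF4.

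CD9 (ENSG00000010278) lies on chromosome 12 of hg38, at chr12:6199715-6238271 on the plus strand, and CD63 (ENSG00000135404) at chr12:55725323-55729707 on the minus strand. A stretch upstream of the start of each gene's MANE Select transcript (position 6200400 for CD9 and 55729009 for CD63) is shown because these were the members with a lower CPM in shAPC at both days and under every scaling tried. Both genes have other transcripts that begin farther upstream, so the stretches lie within the gene spans, but they hold no GENCODE 44 exon of the gene itself. The sequence is RefSeq's of GRCh38.p14, at chr12:6200150-6200326 for CD9 (177 bases) and chr12:55729010-55729259 for CD63 (250 bases, reverse strand). The antisense gene CD63-AS1 overlaps the CD63 gene. Capitals mark GC boxes (GGGCGG on either strand).
CD9: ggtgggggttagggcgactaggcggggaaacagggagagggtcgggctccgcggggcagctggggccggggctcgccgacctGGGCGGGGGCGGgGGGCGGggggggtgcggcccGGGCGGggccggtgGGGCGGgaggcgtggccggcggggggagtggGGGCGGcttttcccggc
CD63: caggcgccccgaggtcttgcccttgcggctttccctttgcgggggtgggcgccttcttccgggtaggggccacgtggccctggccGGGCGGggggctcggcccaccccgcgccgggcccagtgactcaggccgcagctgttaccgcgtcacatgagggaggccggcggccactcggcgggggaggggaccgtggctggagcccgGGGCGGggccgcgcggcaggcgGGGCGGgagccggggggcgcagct
Both windows were rich in G and C, 83.1% for CD9 and 79.2% for CD63, and held 6 and 3 GC boxes. Of 35116 RefSeq promoter windows, 42.6% held a GC box in the same 250 bases, and 30.8% in the 177 bases that match the CD9 window. The letters of the TCF/LEF core (CTTTGAT, either strand) were in neither window; 2.26% of all windows of 250 bases and 1.67% of those of 177 held it. The CCAAT letters (either strand), in 32.0% of windows of 250 bases and 23.2% of those of 177, were also absent from both. A match in letters is a description, and nothing about a factor follows from it.

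CD9, the surface tetraspanin, was low in both shAPC libraries. It stood at 48.3 CPM (46.2 to 50.5) in shScr day 3 and 17.5 (16.2 to 19.0) in shAPC day 3, then at 51.8 (49.3 to 54.4) in shScr day 7 and 13.2 (11.9 to 14.6) in shAPC day 7. Both shAPC values lay far under both shScr values, which were close to each other. On the log2 scale shAPC stood at -1.46 (-1.60 to -1.33) against shScr at day 3, or 36.2% of the control, and at -1.97 (-2.14 to -1.81), or 25.5%, at day 7. Where only genes that reached 20 CPM in either library of the day are ranked, 5175 at day 3 and 4573 at day 7, CD9 had the 5th lowest ratio at each day. The median of all these genes was 0.28 at day 3 and -0.10 at day 7, so that CD9 stood at -1.74 and -1.88 relative to it.

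The difference in CD9 was present in each depth class from 2000 UMIs up and on both sides of the mitochondrial limit. At day 3 the log2 ratio was -1.64 (-2.96 to -0.49) in cells of 2000 to under 10000 UMIs, -1.04 (-1.83 to -0.33) from 10000 to under 30000 and -1.46 (-1.60 to -1.32) from 30000 UMIs up. At day 7 it was -3.51 (-5.42 to -2.09), where shAPC had only 4 CD9 UMIs, then -1.95 (-2.23 to -1.67) and -1.78 (-2.00 to -1.57). In the barcodes of at least 5% mitochondrial UMIs, which the filter removes, the day 3 ratio was -1.82 (-2.15 to -1.501) and the day 7 ratio -2.31 (-2.50 to -2.13).

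Cells with a CD9 UMI were also fewer in shAPC. Since depth per cell differed, each cell was thinned to 2000 UMIs, leaving out 217, 115, 1402 and 391 shallower cells. CD9 was then seen in 8.79% (7.02 to 10.8) of cells in shScr day 3 against 2.67% (1.59 to 4.19) in shAPC day 3, and in 8.01% (6.54 to 9.70) of shScr day 7 against 2.48% (1.64 to 3.59) of shAPC day 7. Without thinning the shares were 57.3% and 37.8% at day 3 and 30.4% and 16.8% at day 7. In cells deep enough to be thinned to 10000 UMIs they were 35.8% (32.4 to 39.3), 14.6% (11.8 to 17.7), 33.8% (30.8 to 37.0) and 8.09% (6.42 to 10.0) in the order of libraries given. The cells are all of 1 line, with no cell type that lacks CD9, so the part of these shares due to free RNA in the droplets was not measured.

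**Figure D1:**
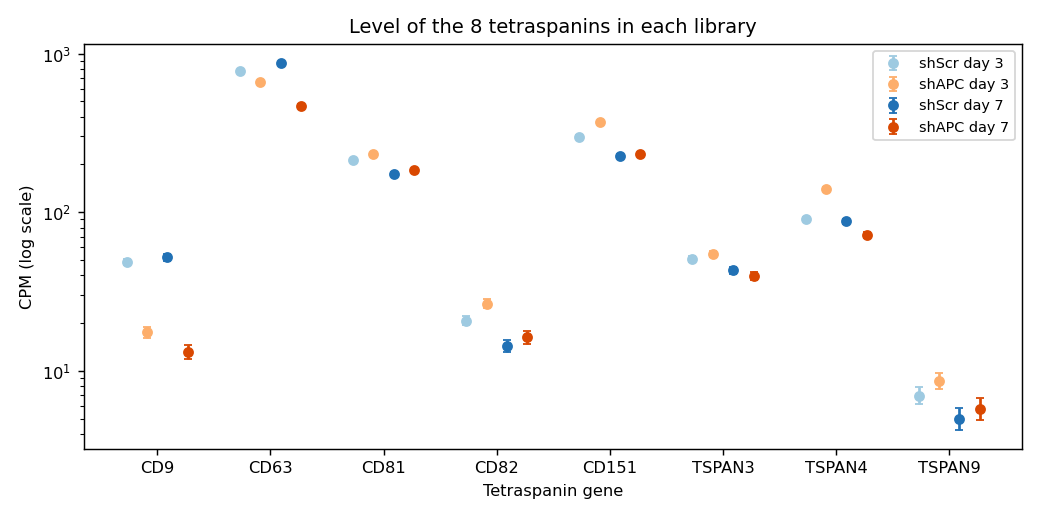
Level of the 8 tetraspanins (x axis) in CPM on a log scale (y axis); each point is 1 library and each bar its exact Poisson 95% interval. CD9 is at 17.5 and 13.2 CPM in the shAPC libraries against 48.3 and 51.8 in shScr, and CD63 is the other member whose points are lower in shAPC at both days.

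CD63, the endosomal and lysosomal tetraspanin and a common marker of exosomes, was the other member that was lower in shAPC at both days. Its level was 780 CPM (771 to 789) in shScr day 3 and 660 (651 to 669) in shAPC day 3, and 869 (859 to 879) in shScr day 7 against 470 (462 to 478) in shAPC day 7. Both shAPC values were under both shScr values, by a smaller factor than for CD9. Its log2 ratio of -0.24 (-0.27 to -0.22) at day 3 was -0.89 (-0.92 to -0.86) at day 7, or -0.52 and -0.79 after the median of all genes was taken off. In these ranks CD63 was 371st from the lowest of 5175 genes at day 3 and 113th of 4573 at day 7. After thinning to 2000 UMIs, 67.0% (63.8 to 70.0) of cells of shScr day 3 and 59.7% (55.9 to 63.5) of shAPC day 3 had a CD63 UMI, and 69.5% (66.8 to 72.1) and 49.3% (46.3 to 52.3) at day 7.

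On plain CPM, the surface tetraspanins CD81 and CD151 were close to the control or above it. CD81, a partner of the EWI proteins in other cells, was at 212 CPM (208 to 217) in shScr day 3, 232 (227 to 237) in shAPC day 3, 175 (171 to 180) in shScr day 7 and 183 (178 to 188) in shAPC day 7. Its log2 ratio, 0.12 (0.08 to 0.17) at day 3, was 0.06 (0.01 to 0.12) at day 7. CD151 was at 300 CPM (294 to 305), 368 (362 to 374), 226 (221 to 232) and 232 (226 to 237) in the same order, with log2 ratios of 0.30 (0.26 to 0.33) and 0.03 (-0.02 to 0.08). Relative to the median of all genes CD81 was at -0.15 and 0.16, and CD151 at 0.02 and 0.13. On plain CPM both genes were lower at day 7 than at day 3 with either hairpin.

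TSPAN4 was on opposite sides of the control at the 2 days, by more than counting error at each. It was at 90.8 CPM (87.9 to 93.8) in shScr day 3 and 141 (137 to 145) in shAPC day 3, then 87.8 (84.5 to 91.1) in shScr day 7 and 72.0 (68.9 to 75.2) in shAPC day 7. The shAPC day 3 library was thus the high one, the other 3 lying within 72.0 to 90.8 CPM. Its log2 ratio, 0.63 (0.57 to 0.70) at day 3, was -0.29 (-0.37 to -0.20) at day 7. The day 3 value was 0.25 with edgeR's TMM factors, 0.27 with DESeq2 size factors and 0.26 as a mean over cells.

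TSPAN3, CD82 and TSPAN9 had fewer UMIs and small ratios. TSPAN3 was at 50.9, 54.8, 42.9 and 39.9 CPM, a log2 ratio of 0.11 (0.01 to 0.20) at day 3 and -0.11 (-0.22 to 0.01) at day 7. CD82 was at 20.7, 26.4, 14.3 and 16.3 CPM, with ratios of 0.35 (0.22 to 0.49) and 0.19 (-0.01 to 0.38), the second being -0.36 as a mean over cells. TSPAN9 was at 6.99, 8.67, 4.96 and 5.76 CPM, with 0.31 (0.07 to 0.55) and 0.22 (-0.11 to 0.54). At day 7 the 3 intervals include 0. With TMM or DESeq2 factors, which put shAPC day 3 lower against shScr day 3 than the plain totals do, the day 3 ratios of CD81, CD82, CD151, TSPAN3 and TSPAN9 all turned to between -0.01 and -0.27, so a direction for these 5 genes at day 3 depends on the scaling.

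By a 2-fold limit on log2(CPM + 1), with 20 CPM reached in either library of the day, 7 of the 8 members could be counted at day 3 and 6 at day 7, TSPAN9 being too low at both days and CD82 at day 7. Of these, 1 was at least 2-fold lower in shAPC at each day, CD9, where 0.425% of all genes were at day 3 and 1.77% at day 7. None was 2-fold higher, where 3.86% and 0.787% of all genes were. At 1.5-fold, CD9 alone was lower at day 3 (1.51% of all genes) and CD9 and CD63 at day 7 (7.65%), while TSPAN4 alone was higher at day 3 (17.1%) and no member at day 7 (2.82%). CD9 was among the 17 of 4448 genes (0.382%) that were at least 2-fold lower at both days. CD9 was itself chosen for this contrast, so nothing is read from its place in these counts.

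**Figure D2:**
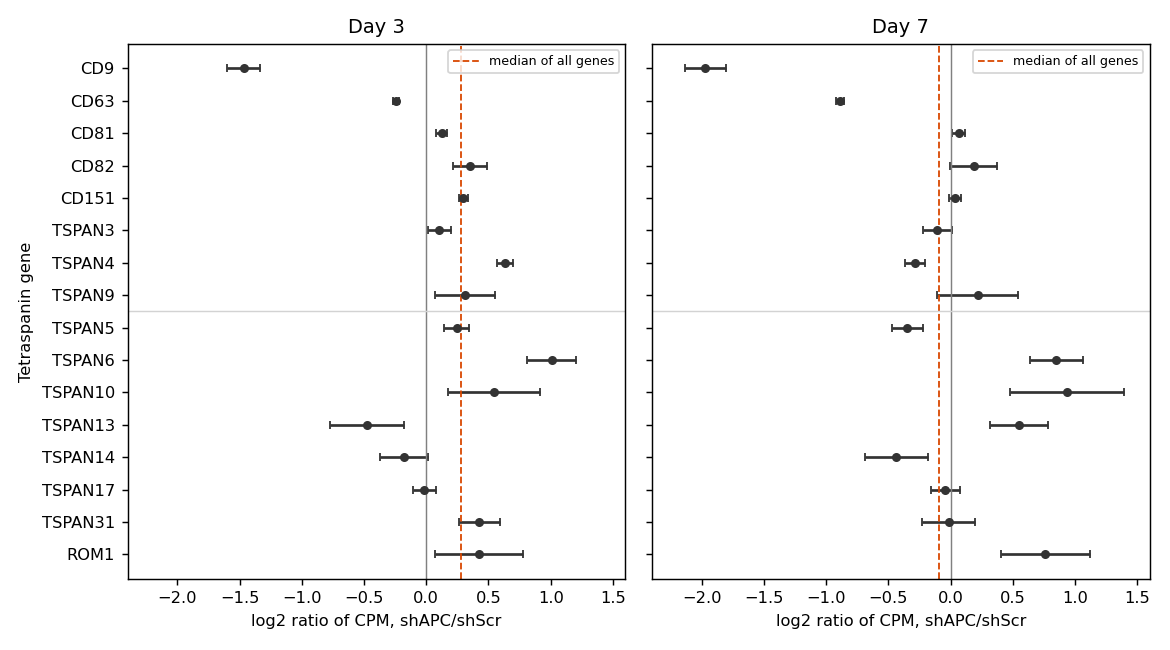
Log2 ratio of CPM, shAPC to shScr (x axis), at day 3 (left) and day 7 (right) for the 8 members and, under the grey line, the 8 other tetraspanins with at least 100 UMIs in 1 library; bars are 95% counting intervals and the dashed line is the median of all genes (0.28 and -0.10). CD9 lies farthest to the left at both days, CD63 next at day 7, and TSPAN6 is on the right at both.

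On plain CPM the sum of the other members was higher at day 3 by nearly as much as CD9 was lower, a match that other scalings did not keep. At day 7 the sum was lower as well. Their sum was 1461 CPM (1450 to 1473) in shScr day 3 and 1490 (1478 to 1503) in shAPC day 3, and 1421 (1407 to 1434) against 1018 (1006 to 1030) at day 7. Beside CD9 differences of -30.8 and -38.6 CPM, the sum of the other 7 differed by 29.0 CPM at day 3 and by -402 CPM at day 7. CD63 differed by -120 CPM at day 3 and by -399 at day 7, nearly the whole of the day 7 difference. The day 3 log2 ratio of the sum, 0.03 (0.01 to 0.05), had no steady sign: it was -0.35 with TMM and -0.33 with DESeq2 factors, -0.085 on totals without mitochondrial and ribosomal protein genes, and -0.12 as a mean over cells. The day 7 ratio, -0.48 (-0.50 to -0.46), was negative under every alternative listed.

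All 33 tetraspanins summed to 1656, 1676, 1608 and 1171 CPM, so on plain totals shAPC day 7 was the library with the lowest tetraspanin CPM and the other 3 were alike. The log2 ratio of this sum, 0.02 at day 3 and -0.46 at day 7, was -0.36 and -0.47 with TMM and -0.35 and -0.48 with DESeq2 factors. CD9 made up 2.92% (2.79 to 3.05) of them in shScr day 3, 1.04% (0.96 to 1.13) in shAPC day 3, 3.22% (3.07 to 3.38) in shScr day 7 and 1.13% (1.02 to 1.25) in shAPC day 7. CD63 made up 47.1%, 39.4%, 54.0% and 40.1%. These shares are taken within a library and do not depend on the scaling.

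**Figure D3:**
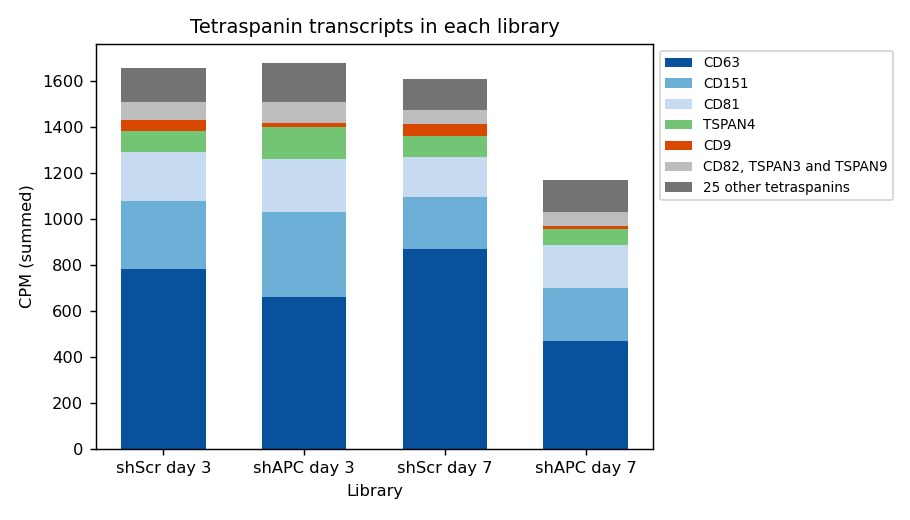
Summed CPM of tetraspanin transcripts (y axis) in each library (x axis), split by gene or group of genes; there is 1 library per bar and no error bar. The sums are 1656, 1676, 1608 and 1171 CPM, and the shorter bar of shAPC day 7 is mostly its smaller CD63 block.

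Of the 25 other tetraspanins, 15 had at least 20 UMIs in 1 library, TSPAN16, TSPAN32 and CD53 had none in any library, and 7 reached at most 18 UMIs. A count of 0 allows up to 3 UMIs, 0.08 to 0.11 CPM in these libraries. As a group the 25 stood at 146, 168, 135 and 139 CPM, a log2 ratio of 0.21 (0.16 to 0.26) at day 3, which turned to -0.17 with TMM and -0.16 with DESeq2 factors, and of 0.04 (-0.02 to 0.10) at day 7. TSPAN5 and TSPAN17, both partners of the protease ADAM10, were the only ones of at least 20 CPM. TSPAN17 was at 53.8, 53.3, 42.3 and 41.1 CPM (ratios -0.01 and -0.04), and TSPAN5 at 39.2, 46.4, 39.7 and 31.2 CPM (0.24 and -0.35, the first turning to -0.14 with TMM). Neither was past 1.5-fold. ADAM10 itself was at 51.3, 48.5, 48.0 and 47.9 CPM.

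TSPAN6, a negative regulator of antiviral signalling that also acts in exosome release, was the tetraspanin with the clearest higher level in shAPC. It was at 8.39 CPM (334 UMIs) in shScr day 3 and 16.9 (590) in shAPC day 3, and at 9.38 (293) and 16.9 (481) at day 7. Both shAPC values were above both shScr values, with log2 ratios of 1.01 (0.81 to 1.21) and 0.85 (0.64 to 1.06). As a mean over cells these were 0.56 and 0.30. The day 3 ratio was 0.63 with TMM and 0.65 with DESeq2 factors. In CPM this difference was smaller than that of CD9.

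TSPAN10 (0.54 and 0.93) and ROM1 (0.42 and 0.76), the retinal tetraspanin, were also higher at both days on 65 to 171 UMIs per library, but ROM1 as a mean over cells was at -0.72 at day 3. Their day 3 ratios were smaller with TMM (0.16 and 0.04) and with DESeq2 factors (0.18 and 0.06). TSPAN13 was lower in shAPC at day 3 (250 against 158 UMIs, -0.47) and higher at day 7 (272 against 363, 0.55). TSPAN14 was lower at both days (-0.18 and -0.44), by more than counting error at day 7, but was at 0.17 at day 3 as a mean over cells. TSPAN31, which shares its locus with CDK4, the transgene of this line, on the opposite strand, was at 0.43 and -0.02, the first falling to 0.05 with TMM. TSPAN19 had 12 UMIs in shScr day 3 and 78 in shAPC day 3, a ratio of 2.89 (2.00 to 3.90) on few counts. The 12 UMIs lay in 12 cells and the 78 in 33 of 788 cells, a clumping that the interval does not take into account. At day 7 TSPAN19 had 19 and 24 UMIs. TSPAN1, TSPAN2, TSPAN7, TSPAN12, TSPAN15 and PRPH2 never passed 63 UMIs.

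Of the 7 members that reached 20 CPM in either shScr library, 2 were higher at day 7 than at day 3, CD9 and CD63, and 5 were lower. In shScr, CD9 was at a log2 ratio of day 7 to day 3 of 0.10 (0.01 to 0.20) and CD63 at 0.16 (0.13 to 0.18), where the median of all genes was 0.05. In shAPC, CD9 was at -0.41 (-0.60 to -0.22) and CD63 at -0.49 (-0.52 to -0.46), where the median of all genes was -0.34. The 6 members that reached 20 CPM in either shAPC library, which CD9 and TSPAN9 did not, were all lower at day 7, 3 of them by at least 1.5-fold (24.1% of all genes). These comparisons share libraries with those of the hairpins and are not separate support for them.

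CD63 was unevenly spread over cells in all 4 libraries. In cells of at least 10000 UMIs (765, 576, 919 and 927), the median cell had 523, 390, 496 and 321 CPM, and the 90th percentile 1753, 1648, 1795 and 748 CPM. Most cells lay under 1000 CPM and a tail reached past 2000. A line at 1000 CPM, set after the values were seen, put 120 cells (15.7%, 13.2 to 18.5) of shScr day 3 above it, 109 (18.9%, 15.8 to 22.4) of shAPC day 3, 172 (18.7%, 16.2 to 21.4) of shScr day 7 and 69 (7.44%, 5.84 to 9.33) of shAPC day 7. The line cuts through a continuous range, with 111, 60, 106 and 52 cells between 750 and 1500 CPM. Whether the cells above it are a distinct cell type or state was not tested. The median depth above and below the line was 46412 against 52203, 58543 against 57367, 33512 against 28630 and 34567 against 27511 UMIs. Cells above it were thus deeper at day 7, where they also had more genes (medians of 4916 against 4399 in shScr and 5055 against 4296 in shAPC). Their mitochondrial share was slightly lower (2.90% to 3.49% against 3.56% to 4.20%).

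**Figure D4:**
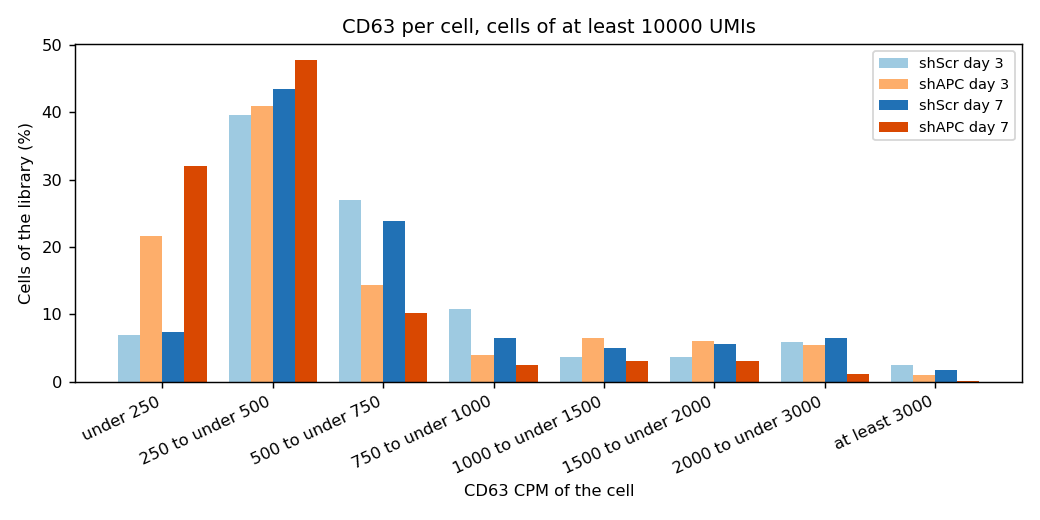
Share of the cells of at least 10000 UMIs in each library (y axis, %) by the CD63 CPM of the cell (x axis, classes of unequal width). Under 250 CPM lie 6.93% of the cells of shScr day 3, 21.7% of shAPC day 3, 7.40% of shScr day 7 and 32.0% of shAPC day 7, and each library has a tail above 1000 CPM.

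Against the median deep cell of shScr, 64.6% (60.5 to 68.5) of deep shAPC cells were lower in CD63 at day 3 and 79.6% (76.9 to 82.2) at day 7. The same shares were 40.6% and 44.1% for CD81 and 33.7% and 42.4% for CD151, so for these genes most shAPC cells were not below the control median.

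CD9 was more abundant in the cells of high CD63 in each of the 4 libraries. It was at 79.9 CPM above the line and 41.9 below it in shScr day 3, at 31.8 and 14.1 in shAPC day 3, at 85.4 and 36.7 in shScr day 7 and at 23.6 and 11.9 in shAPC day 7. The log2 ratio of shAPC to shScr for CD9 was -1.33 (-1.57 to -1.09) above the line and -1.57 (-1.73 to -1.40) below it at day 3, and -1.86 (-2.26 to -1.47) and -1.62 (-1.82 to -1.43) at day 7. CD9 was thus lower in shAPC among cells of either CD63 level.

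**Figure D5:**
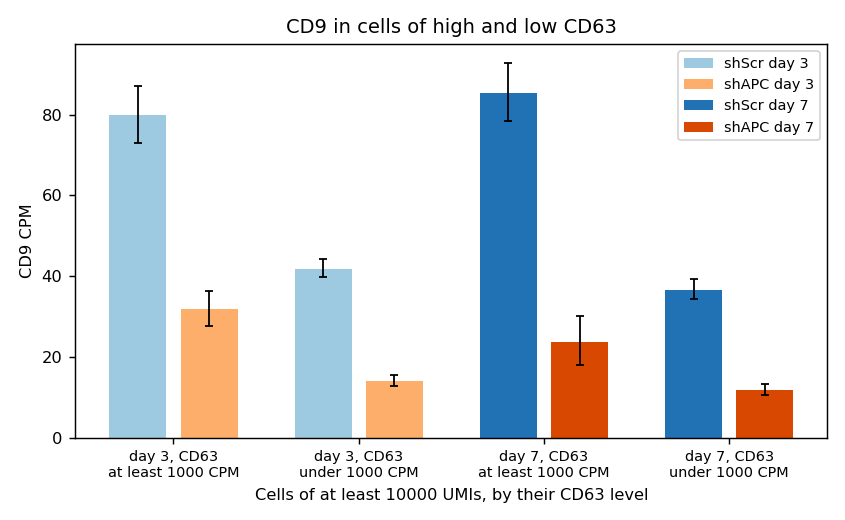
CD9 CPM (y axis) in cells of at least 10000 UMIs, split by day and by whether the cell had at least 1000 CPM of CD63 (x axis); bars are single libraries and lines exact Poisson 95% intervals. CD9 is higher in cells of high CD63 (79.9 against 41.9 CPM in shScr day 3) and lower in shAPC in both classes.

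TSPAN4 followed the same pattern over cells, at 127 against 82.6 CPM, 191 against 129, 140 against 66.5 and 111 against 66.0 above and below the line. CD151 did so less steeply (347 against 289, 427 against 354, 315 against 189 and 314 against 219), and CD81 was near level (200 against 218, 211 against 239, 178 against 182 and 187 against 187). TIMP1, the metalloproteinase inhibitor that binds CD63, was at 8581 against 1509 CPM, 8300 against 1437, 7139 against 1274 and 9605 against 1161, and its median over single cells was also several times higher (5970 against 1232 CPM in shScr day 3 and 6680 against 937 in shAPC day 7). TIMP1, CYBA, PRDX4, PSMB3 and PSMB6, singled out after their values were seen, were the 5 genes that stood among the 10 with the highest ratio of high to low CD63 cells (of those at 100 CPM or more) in all 4 libraries. Cell by cell after thinning to 10000 UMIs, the rank correlation of CD9 with each other member was weak, from -0.10 to 0.16 over 576 to 927 cells that share a library and a mean of at most 0.477 CD9 UMIs.

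From the partner list of 20, on plain CPM, 11 genes could be counted at day 3 (8 higher and 3 lower in shAPC, median log2 ratio 0.12; 9 lay below the median of all genes) and 10 at day 7 (3 higher and 7 lower, median -0.11), none past 2-fold. This list was not recomputed with TMM or DESeq2 factors, so a day 3 direction is not settled for it. TIMP1 was at 2708, 2773, 3005 and 2155 CPM, the integrin subunit ITGB1 at 706, 766, 543 and 641, and the hyaluronan receptor CD44 at 325, 380, 314 and 369. The day 7 ratio of TIMP1 over all kept cells, -0.48 (-0.49 to -0.47), was lower by about as much as the sum of the 7 members. Within the CD63 classes of cells of at least 10000 UMIs it was not. There the day 7 ratio of TIMP1 was 0.43 (0.41 to 0.45) above the line of 1000 CPM and -0.13 (-0.16 to -0.11) below it. Above the line were 18.7% of these cells in shScr day 7 and 7.44% in shAPC day 7. What this adds to the pooled ratio was not tested. HBEGF, the growth factor precursor whose activity CD9 raises, was at 8.79, 13.6, 7.43 and 4.36 CPM, and the direct CD9 partners IGSF8 at 3.54, 4.92, 2.75 and 2.71 CPM and PTGFRN at 0.28, 0.26, 0.26 and 0.49 CPM, all under the level counted. Among the other partners under that level, named after their values were seen, the interferon-induced IFITM1 was at 4.87, 19.8, 5.03 and 1.62 CPM, the laminin receptor subunit ITGA6 at 8.47, 6.18, 11.3 and 3.76, and the tight junction protein CLDN1 at 2.16, 3.49, 4.80 and 0.84. All 3 were lower in shAPC at day 7, and IFITM1 and CLDN1 were higher at day 3.

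On plain CPM, genes of the compartments where CD63 resides were mostly higher in shAPC at day 3, as was the median of all genes (0.28). At day 7 they were mixed or mostly lower, beside a median of all genes of -0.10. These lists were not recomputed with TMM or DESeq2 factors, with which the day 3 median of all genes was -0.13 and -0.11, so a day 3 direction is not settled for them. Of the 10 endolysosomal genes 9 could be counted, and all 9 were higher in shAPC at day 3 (median 0.42; 7 lay above the median of all genes) and 4 higher and 5 lower at day 7 (median -0.04), with none past 2-fold. CTSB, a lysosomal protease, was at 385, 467, 317 and 258 CPM, PSAP at 220, 297, 218 and 258, and NPC2 at 142, 152, 181 and 155. The protease CTSL and the lysosomal membrane protein LAMP2, named after their values were seen, had day 7 log2 ratios of -0.66 (-0.76 to -0.56) and -0.52 (-0.64 to -0.41). Of the 14 vesicle genes 10 could be counted, and 9 were higher and 1 lower at day 3 (median 0.25; 3 lay above the median of all genes) and, of 9 counted, 2 higher and 7 lower at day 7 (median -0.19). Among them SDCBP, the adaptor syntenin that carries syndecans and CD63 into exosomes, was at 82.0, 98.8, 83.9 and 52.1 CPM (0.27 and -0.69), CHMP4B at 77.2, 87.3, 80.7 and 74.4 and FLOT1 at 65.0, 72.9, 70.4 and 50.6. SDC4, the syndecan that syntenin binds, was the vesicle gene past 2-fold, at day 7: it was at 90.9, 52.2, 82.5 and 32.0 CPM, a log2 ratio of -0.80 (-0.88 to -0.72) and -1.36 (-1.48 to -1.26).

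Over the 4 libraries, the 5 genes whose log2(CPM + 1) profile, centred on its own mean, lay nearest to that of CD9 among 5300 genes were MAP2K1, IL18, EFEMP1, TOMM22 and SNRPD1, at Euclidean distances of 0.22 to 0.35. MAP2K1 was at 34.2, 13.6, 36.1 and 11.1 CPM and IL18 at 23.6, 9.33, 29.4 and 7.98 CPM. With a pseudocount of 5 CPM, 3 of the 5 stayed. The nearest member was CD63, at place 105 (distance 1.09), and the others were at places 1697 (TSPAN3) to 4050 (CD82).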

How the data were processed

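The authors deposited, for each library, a 10x Genomics matrix of UMI counts per gene and barcode (33538 genes, hg38), made with Cell Ranger (3.0.2 in the headers of the shScr files and 3.0.0 in those of the shAPC files; the methods name only the older). The labels and the methods name different kit versions. Samples were grouped by title. Barcodes with at least 200 genes, 500 UMIs and under 5% UMIs from 13 mitochondrial genes were kept, and UMIs were summed per library and divided by the total (28451455 to 39797418 UMIs) to give CPM. No doublets were removed. CPM intervals are exact Poisson, ratios exact conditional binomial and shares Clopper-Pearson, all 95% and for counting error only. With 1 library per group nothing was tested. Called genes had at least 20 CPM in 1 library and a 2-fold or 1.5-fold difference on log2(CPM + 1). Genes named were APC, the members, other tetraspanins of at least 20 UMIs in 1 library, the 3 most abundant genes of each list and any of them past 2-fold, 5 set partners (IGSF8, PTGFRN, HBEGF, ADAM10 and TIMP1) and the 5 genes nearest to CD9. The members and lists were chosen with earlier results of these data known. Ratios and thinning were tested on simulated data. Alternatives were TMM (edgeR 4.0.16) and DESeq2 1.42.0 size factors, other totals, filters and thinning depths, with Python 3.11.15, numpy 2.4.6, scipy 1.17.1 and R 4.3.3. The positions come from GENCODE 44 and RefSeq.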

Additional observations from a re-analysis of the deposited data

Results flagged for a closer look

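For 3 tetraspanins the 1 shAPC library lay on opposite sides of its shScr library at the 2 days, with both counting intervals clear of 0; with 1 library per group these differences were not tested. TSPAN4 had a log2 ratio of 0.63 at day 3 and -0.29 at day 7, TSPAN5 of 0.24 and -0.35, and TSPAN13 of -0.47 and 0.55. With TMM or DESeq2 factors TSPAN5 was lower at both days (-0.14 and -0.12 at day 3), so its opposite directions depend on the scaling.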

How the results depend on the processing

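No paired analysis was possible because each group holds 1 library. The CD9 ratio was negative in every alternative; at day 3 it was -1.84 with TMM and -1.83 with DESeq2 factors, and at day 7 -2.33 as a mean over cells and -1.62 in cells of at least 10000 UMIs and under 1000 CPM of CD63, a setting chosen after seeing the data. The day 3 sum of the other 7 members was -0.35 with TMM, -0.33 with DESeq2 factors, -0.085 on totals without mitochondrial and ribosomal protein genes, -0.12 as a mean over cells, -0.011 over all deposited barcodes, -0.0085 with a limit of 10% mitochondrial UMIs and 0.0057 without the 5% deepest cells. The day 7 sum was -0.50 with DESeq2 factors, -0.42 on the reduced totals, -0.67 as a mean over cells, -0.44 over all barcodes, -0.43 with at least 2000 genes, -0.43 under 10% mitochondrial UMIs and -0.45 without the deepest cells. The difference in cells with a CD9 UMI, -6.11 percentage points at day 3 and -5.53 at day 7, was -19.4 and -13.6 without thinning, -13.1 and -15.3 at 5000 UMIs, -21.2 and -25.8 at 10000 UMIs (chosen after seeing the data) and, at day 3, -2.74 at 1000 UMIs. With a minimum of 100 CPM, 0 members were counted as 2-fold lower at either day, since CD9 lies below that level.

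Single members and other tetraspanins turned at day 3 with TMM and DESeq2 factors: CD81 (-0.26 and -0.24), CD82 (-0.027 and -0.010), CD151 (-0.083 and -0.066), TSPAN3 (-0.27 and -0.26), TSPAN9 (-0.068 and -0.051) and TSPAN5 (-0.14 and -0.12). TSPAN3 turned to -0.0082 on totals without mitochondrial and ribosomal protein genes, and as a mean over cells TSPAN9 was at -0.20 and ROM1 at -0.72. The median of all genes at day 3 was -0.13 with TMM and -0.11 with DESeq2 factors, and at day 7 it was 0.012 with no minimum level. The genes at least 2-fold lower at day 3 numbered 22, against 67 with TMM, 60 with DESeq2 factors, 36 on the reduced totals, 5 at 100 CPM and 37 with no minimum. Those 2-fold higher numbered 200, against 83, 84, 37 at 100 CPM and 491 with no minimum. At day 7 the 81 lower were 27 at 100 CPM and 135 with no minimum, and the 36 higher were 7, 164 and, on the reduced totals, 75. In all, 24 of 439 alternative values turned direction where the reported value was clear of 0 by counting error or was a median of all genes, 23 of them at day 3. With ratios whose interval includes 0 also counted, 42 had the other sign, 27 at day 3 and 15 at day 7, among them, as means over cells, CD82 (-0.36), CD151 (-0.072), TSPAN17 (0.22), TSPAN1 (0.67) and TSPAN19 (-0.97) at day 7 and TSPAN14 (0.17) and TSPAN17 (0.24) at day 3. Leaving out barcodes shared between libraries, chosen after seeing the data, moved neither the CD9 ratio nor the sum beyond its counting interval. Low counts limit TSPAN9, TSPAN19 and the 10 tetraspanins under 20 UMIs, and differences between cultures of one kind cannot be seen with 1 library each.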
